A study of Mus musculus with 4 samples.

Results

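The genes described here are those of the BMP, activin and TGF-beta signalling pathway, read in embryonic mouse cortex at day 15 (E15). They were taken by symbol from a list of 48 ligands, antagonists, receptors, Smads and regulators, with the Id genes left out, and 42 of the 48 have a row among the 13289 genes of the table. Bmp2, Bmp4, Bmp6, Fstl3, Fstl4 and Smad9 were not analysed here. The table holds bulk RNA-seq of polyadenylated RNA from 4 libraries, 2 of control cortex (titled WT) and 2 of Lhx2 cKO cortex, in which cKO is read as conditional knockout of Lhx2, a LIM-homeodomain transcription factor of cortical progenitors. The Cre driver, the floxed allele, the sex and the number of embryos per library are not given in the sources used here. Nor do the labels say that the 2 libraries of a group came from separate animals. The p-values thus rest on spread between libraries, largely shared across genes by the test, and not on a shown spread between animals. Here the question is which genes of the pathway differ where Lhx2 is targeted.

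Ligands of this superfamily are secreted dimers that bring together type I and type II receptor kinases. Activins and TGF-betas act mainly through Smad2 and Smad3, and BMPs through Smad1, Smad5 and Smad9; each set joins Smad4 and enters the nucleus. Extracellular antagonists, latent binding proteins, a decoy receptor, inhibitory Smads and ubiquitin ligases limit the signal. In the developing forebrain BMPs are best known from the dorsal midline and its hem, and TGF-beta signalling from progenitors, blood vessels, microglia and meninges.

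Total counts per library were between 22294237 and 24609627, where 3 counts correspond to 0.122 to 0.135 CPM, the count of a gene relative to the total of its library. All CPM of genes here are scaled with TMM, whereas that of 3 counts uses the library total alone. A gene is said to be called where edgeR's quasi-likelihood test gave a Benjamini-Hochberg adjusted p under 0.05 over the 13288 genes tested. Lhx2 itself (ENSMUSG00000000247.12) was at 316 and 287 CPM in control and 239 and 247 CPM in Lhx2 cKO, 80.7% of the control mean (log2 fold change -0.31, SE 0.0976, edgeR adjusted p 0.0191). The direction is that of the labels, but most of the transcript remained, and whether the counted exons lie outside the deleted part is not given. Leaving out control 1, Lhx2 cKO 1 or Lhx2 cKO 2 gave adjusted p of 0.176, 0.102 and 0.0538. Over all genes tested 2758 were called, or 20.8%, of which 1540 (11.6%) were higher and 1218 (9.17%) lower in Lhx2 cKO. The total was 1790 without control 1 and 1633 without Lhx2 cKO 2. The tissue label was checked against marker lists. All 11 markers of cortical excitatory neurons were present, with at least 1907 counts each in every library. Their summed level was 5184 to 5586 CPM in control and 5215 to 5334 CPM in Lhx2 cKO, with Tubb3 and Neurod2 the most abundant. Of the 11, 2 were called lower, Neurod6 (log2 fold change -0.32, edgeR adjusted p 0.0212) and Cux1 (-0.48, adjusted p 1.79e-04), and 0 higher.

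Of the 42 pathway genes, 16 were called (38.1%, against 20.8% of all genes tested), 10 of them lower (against 9.17%) and 6 higher (against 11.6%). The genes called lower were Smad6, Ltbp1, Inhba, Tgfb2, Acvr1, Skil, Acvr2b, Ltbp3, Inhbb and Chrd. Those called higher were Grem1, Bambi, Bmp3, Tgfbr2, Smad3 and Acvr2a. Counts of calls given below by role, further list or marker list are to be read beside these shares over all genes. The 42 genes were chosen with earlier results of these data known, so their share is not independent of those results. The median log2 fold change of the 42 genes was 0.001, beside 0.003 over all genes. Control and Lhx2 cKO libraries lay apart, with no overlap, in 27 of the 42 genes (64.3%), near the 59.3% of all genes, and in each of the 16 called genes. At least a 2-fold change was found for 5 of the 16: Smad6, Ltbp1, Inhba and Tgfb2 fell and Grem1 rose. The 26 genes not called had log2 fold changes between -0.25 (Smad4) and 0.81 (Tgfbr3). Leaving out 1 library in turn left 11 to 14 calls. The 6 rises became 2 without control 1 and 2 without Lhx2 cKO 2, in each case Grem1 and Bambi, while the falls numbered 9 or 10 in each of the 4 fits. Of the 42 genes, 15 had an adjusted p under 0.05 in the authors' deposited table, all of them called here as well. A further column of the authors' deposited table marks 8 of these 15 as up (Bmp3, Grem1, Bambi and Tgfbr2) or down (Inhba, Tgfb2, Ltbp1 and Smad6) and the other 7, like Lhx2, as NS. Over all genes in the authors' deposited table that mark began at an absolute log2 fold change of 0.59. The remaining call here was Acvr2a, with 0.0531 in the authors' deposited table. In bulk RNA, fewer cells of a type and less RNA per cell cannot be told apart.

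**Figure D1:**
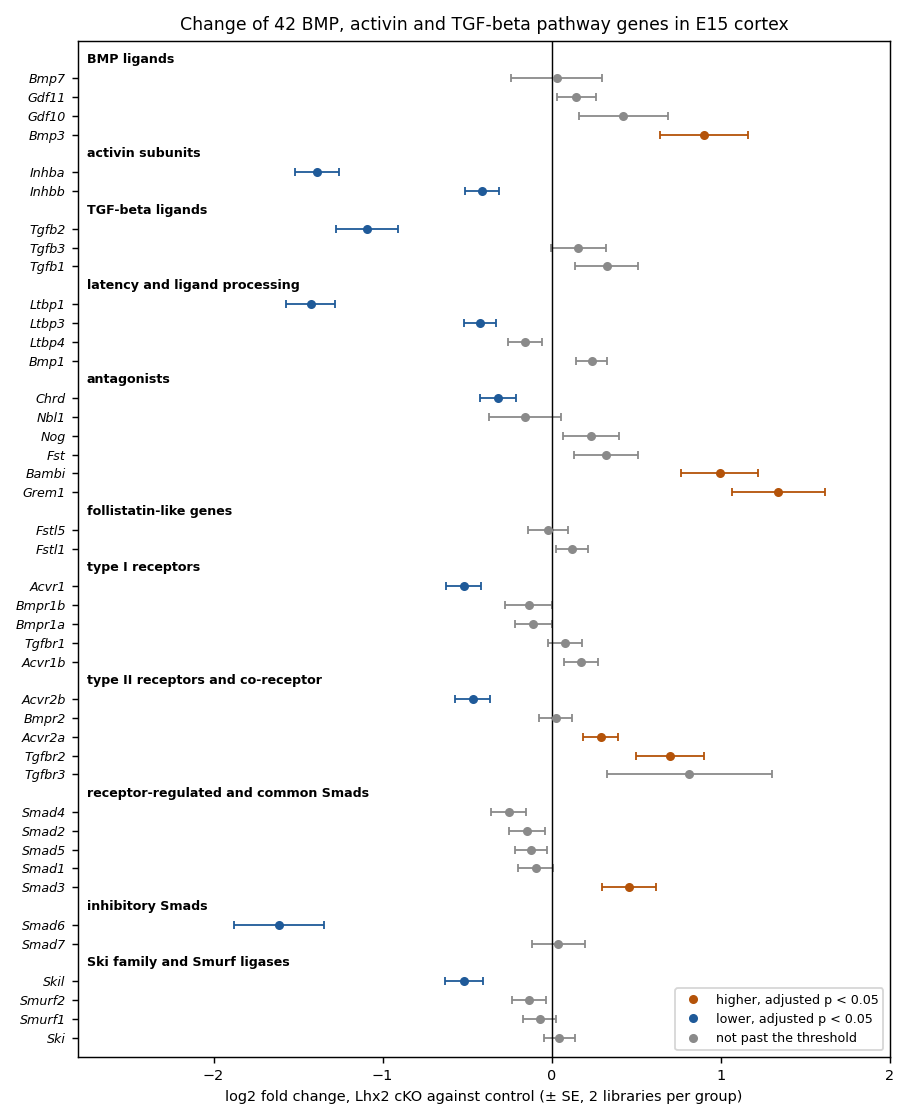
Change between Lhx2 cKO and control on the log2 scale (x axis, points with SE bars, 2 libraries per group) for the 42 pathway genes (y axis), grouped by role; orange marks genes called higher, blue genes called lower and grey genes not called. Smad6, Ltbp1, Inhba and Tgfb2 lie farthest to the left, at -1.61, -1.42, -1.39 and -1.09, and Grem1 farthest to the right, at 1.34.

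The 250 bases before the transcription start of the 5 genes that changed at least 2-fold are shown here because they are the sequences nearest to the transcripts that moved most. They come from RefSeq on GRCm38.p6, 5′ to 3′ on the gene's strand, whereas the submitters' processing notes name mm39 for the counts. Inhba is at chr13:16011601-16011850 (plus strand), Tgfb2 at chr1:186705990-186706239 (minus), Smad6 at chr9:64022060-64022309 (minus) and Grem1 at chr2:113758649-113758898 (minus). Ltbp1 has 2 annotated starts, an upstream one at chr17:75005279-75005528 and a downstream one at chr17:75178531-75178780 (both plus), the latter within the gene body that runs from the former. Capitals mark matches to 3 motifs searched on both strands. These were TAATTA (a form of the site bound by many homeodomain proteins), CAGACA with its complement TGTCTG (the Smad box) and GGCGCC (a GC-rich Smad site). Other forms of a homeodomain site were not searched.
Inhba: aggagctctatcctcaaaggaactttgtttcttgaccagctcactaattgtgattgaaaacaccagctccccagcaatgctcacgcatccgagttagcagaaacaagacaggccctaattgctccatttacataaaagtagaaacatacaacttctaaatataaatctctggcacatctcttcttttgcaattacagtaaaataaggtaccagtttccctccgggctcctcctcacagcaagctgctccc
Tgfb2: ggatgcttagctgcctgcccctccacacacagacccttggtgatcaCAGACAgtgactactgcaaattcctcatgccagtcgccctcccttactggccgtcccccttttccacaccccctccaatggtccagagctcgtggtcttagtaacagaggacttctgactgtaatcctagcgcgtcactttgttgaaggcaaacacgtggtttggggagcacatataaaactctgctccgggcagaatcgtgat
Ltbp1 upstream start: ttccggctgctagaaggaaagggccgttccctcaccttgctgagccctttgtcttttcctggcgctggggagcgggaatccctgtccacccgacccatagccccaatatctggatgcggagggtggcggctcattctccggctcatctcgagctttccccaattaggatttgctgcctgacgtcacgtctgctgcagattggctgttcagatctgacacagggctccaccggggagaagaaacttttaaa
Ltbp1 downstream start: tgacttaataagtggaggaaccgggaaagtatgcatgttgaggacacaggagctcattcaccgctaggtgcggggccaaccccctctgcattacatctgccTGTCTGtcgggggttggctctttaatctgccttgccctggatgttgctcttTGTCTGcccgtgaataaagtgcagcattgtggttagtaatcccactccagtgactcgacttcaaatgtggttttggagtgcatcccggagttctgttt
Smad6: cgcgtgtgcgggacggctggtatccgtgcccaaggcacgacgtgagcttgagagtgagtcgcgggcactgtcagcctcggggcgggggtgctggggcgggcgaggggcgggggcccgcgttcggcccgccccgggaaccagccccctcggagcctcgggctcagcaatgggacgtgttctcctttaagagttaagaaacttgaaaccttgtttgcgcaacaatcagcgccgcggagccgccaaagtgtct
Grem1: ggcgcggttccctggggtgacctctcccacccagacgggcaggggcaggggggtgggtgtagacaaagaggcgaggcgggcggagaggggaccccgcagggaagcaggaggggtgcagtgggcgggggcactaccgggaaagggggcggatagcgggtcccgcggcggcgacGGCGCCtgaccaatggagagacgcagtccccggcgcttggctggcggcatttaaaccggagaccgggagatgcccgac

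The Tgfb2 sequence held 1 Smad box, starting 204 bases before the transcription start, and the downstream Ltbp1 sequence held 2, starting 149 and 98 bases before it. The Grem1 sequence held 1 GGCGCC match, 78 bases before the start, and those of Inhba, Smad6 and the upstream Ltbp1 start held no match to the 3 motifs. GC content ranged from 43.2% for Inhba to 72.0% for Grem1. Windows of 300 bases, which run 50 bases past the start, were searched for 30 of the 42 genes, 39 windows in all. TAATTA was in 0 of the 39 windows, against 5.29% of the 32851 windows of the whole RefSeq table. The Smad box was in 9 (23.1%, against 21%) and GGCGCC in 14 (35.9%, against 11.9%). Of the 10 windows of genes called lower, 4 held the Smad box (Chrd, Ltbp1, Ltbp3 and Tgfb2), of the 4 windows of genes called higher 0 did, and of the 25 windows of genes not called 5 did. GGCGCC was in 12 of those 25 windows, in 1 of the 10 (Chrd) and in 1 of the 4 (Grem1). The windows of all genes were not matched to those of the members in base composition, and no difference in share was tested. These are matches of letters, not sites shown to be bound.

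Both activin beta subunits were called lower. Inhba (ENSMUSG00000041324.15), which encodes the subunit of activin A, was at 33.3 and 31.5 CPM in control and 11.5 and 13.3 CPM in Lhx2 cKO. The 2 groups lay far apart, with 38.2% of the control level left (log2 fold change -1.39, SE 0.131, edgeR adjusted p 5.84e-11). Inhbb (ENSMUSG00000037035.6), the subunit of activin B, was at 106 and 115 CPM in control and 74.6 and 91.2 CPM in Lhx2 cKO, lower in both Lhx2 cKO libraries by a smaller step (log2 fold change -0.41, SE 0.101, adjusted p 0.00239). Without Lhx2 cKO 1 the Inhbb estimate was -0.27, with an adjusted p of 0.112. Per length Inhbb was the more abundant of the pair in every library: its mean was 25.9 ± 1.46 RPKM (TMM-scaled CPM per kilobase of gene length, SD, n = 2) in control and 19.5 ± 2.76 in Lhx2 cKO, against 5.07 ± 0.198 and 1.94 ± 0.2 RPKM for Inhba. Inha, the alpha subunit that turns activin into inhibin, was at 42.2 and 40.4 CPM in control and 48 and 43.9 CPM in Lhx2 cKO and was not called (adjusted p 0.324).

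Among the 3 TGF-beta ligands, Tgfb2 (ENSMUSG00000039239.15) was called lower. It was at 11.5 and 13.2 CPM in control and 5.67 and 5.92 CPM in Lhx2 cKO, which left 46.9% of the control level (log2 fold change -1.09, SE 0.184, edgeR adjusted p 1.57e-05). Tgfb1, the form made by many blood and vascular cells, was at 7.18 and 7.48 CPM in control and 8.97 and 9.4 CPM in Lhx2 cKO (adjusted p 0.23). Tgfb3 was at 12.9 and 10.3 CPM in control and 13.9 and 12 CPM in Lhx2 cKO, with overlapping groups (adjusted p 0.555). As a share of the summed RPKM of the 3 ligands, Tgfb2 made up 27.6% and 33.4% in control, then 14.3% and 15.9% in Lhx2 cKO. Tgfb3 held the largest share in each of the 4 libraries, 44.7% to 59.8%. In the GENCODE M21 annotation, 2.1% of the exon bases of Tgfb2 and up to 7.6% of those of Tgfb3 overlap a gene on the opposite strand.

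TGF-betas are secreted bound to latent TGF-beta binding proteins, which hold them in the matrix, and 2 of the 3 genes for these were called lower. Ltbp1 (ENSMUSG00000001870.17) was at 24.5 and 25.8 CPM in control and 8.75 and 9.97 CPM in Lhx2 cKO, 37.2% of the control level (log2 fold change -1.42, SE 0.146, edgeR adjusted p 4.63e-10). Ltbp3 (ENSMUSG00000024940.12), the most abundant of the 3 per length, was at 197 and 179 CPM in control and 141 and 139 CPM in Lhx2 cKO (log2 fold change -0.43, SE 0.0952, adjusted p 8.92e-04). Both Lhx2 cKO libraries lay below both control libraries for each gene. Ltbp4 was at 62.1 and 61.2 CPM in control and 54.4 and 56.1 CPM in Lhx2 cKO and was not called (adjusted p 0.281). Bmp1, which despite its name is a metalloprotease that cuts procollagens, chordin and latent complexes, was at 156 and 153 CPM in control and 178 and 186 CPM in Lhx2 cKO; its adjusted p of 0.0693 was the lowest of the genes not called.

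Of the 4 Bmp and Gdf ligands analysed among the pathway genes, Bmp3 was called higher. They are grouped here by name, not by the Smads through which they act. Bmp3 (ENSMUSG00000029335.6), an atypical member that can oppose other BMPs, was at 3.01 and 3 CPM in control (73 and 75 counts) and 5.58 and 5.66 CPM in Lhx2 cKO (127 and 130 counts), with no overlap. The log2 fold change was 0.90 (SE 0.261, edgeR adjusted p 0.0101), and without control 1 or Lhx2 cKO 2 the adjusted p was 0.0507 and 0.0635. Gdf10, a close relative of Bmp3, was at 3.59 and 3.48 CPM in control and 4.26 and 5.22 CPM in Lhx2 cKO (adjusted p 0.277). Bmp7 overlapped between the groups, at 4.33 and 3.52 CPM against 4.18 and 3.83 CPM (adjusted p 0.956). Gdf11, which restrains neuron production in several neural tissues, was the most abundant of the 4 per length, at 6.72 ± 0.271 RPKM in control and 7.43 ± 0.361 RPKM in Lhx2 cKO (SD, n = 2; adjusted p 0.413).

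Of the 6 antagonists analysed, 2 were called higher and 1 lower (50% called, against 20.8% of all genes). Grem1 (ENSMUSG00000074934.4), a secreted BMP antagonist, was at 2.72 and 1.96 CPM in control and 5.93 and 5.92 CPM in Lhx2 cKO, a 2.53-fold rise (log2 fold change 1.34, SE 0.275, edgeR adjusted p 3.09e-04); the counts rose from 66 and 49 to 135 and 136. Bambi (ENSMUSG00000024232.3), a decoy receptor without a kinase domain, was at 4.99 and 3.4 CPM in control and 7.34 and 9.36 CPM in Lhx2 cKO (log2 fold change 0.99, SE 0.226, adjusted p 0.00109). Both Lhx2 cKO libraries lay above both control libraries for each gene, with a wider spread within the groups for Bambi. Chrd (ENSMUSG00000006958.15), which encodes chordin, a secreted BMP antagonist, went the other way, from 39.9 and 42.6 CPM to 34.3 and 32 CPM (log2 fold change -0.32, SE 0.107, adjusted p 0.0302), with no overlap. The Chrd call was lost in DESeq2 (adjusted p 0.0731), without control 2 (0.169) and without Lhx2 cKO 2 (0.217), and 3.8% of its exon bases overlap Thpo on the opposite strand in GENCODE M21.

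The other antagonists were not called. Nog, which encodes noggin, was at 7.37 ± 1.76 RPKM in control and 8.67 ± 1.51 RPKM in Lhx2 cKO (SD, n = 2). Chrd was at 6.59 ± 0.304 and 5.3 ± 0.263 RPKM, so the pair lay within their spread of each other in control, where Chrd was the higher in control 1. Nog differed more within the groups than between their means, at 10.4 and 14.6 CPM in control and 12.9 and 16.5 CPM in Lhx2 cKO (edgeR adjusted p 0.355). Fst, which encodes follistatin, the high-affinity binder of activins, was at 7.3 and 8.32 CPM in control and 11.3 and 8.18 CPM in Lhx2 cKO, where 1 Lhx2 cKO library lay between the control libraries (adjusted p 0.248). Nbl1, a secreted BMP antagonist of the DAN family, was at 6.85 and 6.92 CPM in control and 5.14 and 7.18 CPM in Lhx2 cKO (adjusted p 0.659). The follistatin-like genes Fstl1 and Fstl5 overlapped between groups, with log2 fold changes of 0.12 and -0.02. For these 2 genes edgeR gave 0 calls and 0 unadjusted p under 0.05.

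**Figure D2:**
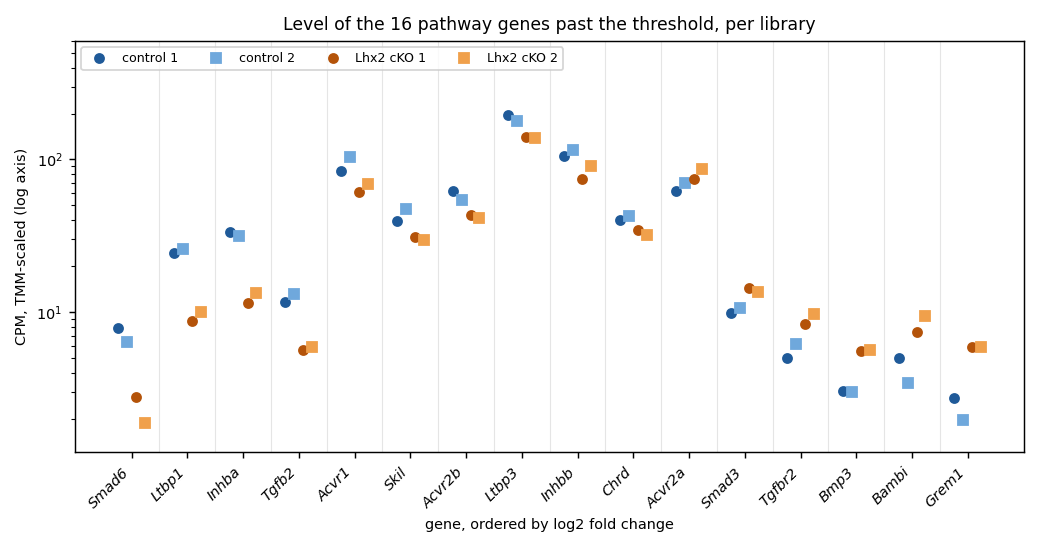
CPM of the 16 called pathway genes (y axis, log scale) in each of the 4 libraries; genes are ordered on the x axis by log2 fold change, circles are replicate 1 and squares replicate 2. The blue control points lie above the orange Lhx2 cKO points for the 10 genes from Smad6 to Chrd and below them for the 6 genes from Acvr2a to Grem1.

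Among the 5 type I receptors, Acvr1 was called lower (20% called, against 20.8% of all genes). Acvr1 (ENSMUSG00000026836.16), a type I receptor used by BMPs, was at 84.6 and 103 CPM in control and 61.6 and 69.3 CPM in Lhx2 cKO, 69.7% of the control level (log2 fold change -0.52, SE 0.104, edgeR adjusted p 2.01e-04). The other 4 overlapped between groups. The BMP receptors Bmpr1a and Bmpr1b had log2 fold changes of -0.11 and -0.14, and the activin receptor Acvr1b and the TGF-beta receptor Tgfbr1 had 0.17 and 0.08, with adjusted p between 0.245 and 0.628. Acvr1b was the most abundant receptor per length, at 54.5 ± 1.89 RPKM in control and 61.5 ± 9.19 RPKM in Lhx2 cKO (SD, n = 2). In control it was followed by Tgfbr1 (23.9 ± 2.46), Acvr1 (19.4 ± 2.72), Bmpr1a (9.31 ± 1.42) and Bmpr1b (3.1 ± 0.194). Tgfbr1 was above Acvr1 within each control library, at 22.1 and 25.6 RPKM against 17.5 and 21.4 RPKM. In Lhx2 cKO they lay farther apart, with Acvr1 at 13.6 ± 1.13 and Tgfbr1 at 25.2 ± 2.24 RPKM.

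The type II receptors for activin moved in opposite directions. Acvr2b (ENSMUSG00000061393.15) was at 62.3 and 54.3 CPM in control and 42.9 and 41.5 CPM in Lhx2 cKO (log2 fold change -0.47, SE 0.103, edgeR adjusted p 7.77e-04). Acvr2a (ENSMUSG00000052155.6) was at 62.1 and 69.6 CPM in control and 74.5 and 86.5 CPM in Lhx2 cKO (log2 fold change 0.29, SE 0.102, adjusted p 0.037). The rise of Acvr2a is the weaker of the pair: its adjusted p was 0.0588 with library totals alone, 0.0898 in DESeq2, 0.325 without control 1 (log2 fold change 0.20) and 0.452 without Lhx2 cKO 2 (0.17). In GENCODE M21 7.8% of its exon bases overlap Orc4 on the opposite strand. Bmpr2, which binds BMPs, was at 119.6 and 130.4 CPM in control and 118 and 136 CPM in Lhx2 cKO, with overlapping groups (adjusted p 0.896).

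Tgfbr2 (ENSMUSG00000032440.14), the type II receptor for TGF-beta, was called higher, from 4.99 and 6.12 CPM to 8.31 and 9.75 CPM (log2 fold change 0.70, SE 0.202, edgeR adjusted p 0.0101). Its adjusted p was 0.136 without control 1 and 0.147 without Lhx2 cKO 2. It was the scarcest of the 4 type II receptors per length, at 0.679 ± 0.0977 RPKM in control and 1.1 ± 0.125 RPKM in Lhx2 cKO (SD, n = 2). The co-receptor Tgfbr3 (betaglycan) was at 22 and 17 counts in control against 21 and 43 counts in Lhx2 cKO, 1 control library being nearly level with 1 Lhx2 cKO library, and was not called (adjusted p 0.251). Markers of 2 cell types in which Tgfbr2 is known to be expressed, microglia and endothelial cells, were also higher. The summed level of 10 microglial markers was 123 to 127 CPM in control and 259 to 286 CPM in Lhx2 cKO, with 9 of 10 called higher. That of 12 markers of endothelial cells and pericytes was 322 to 368 CPM in control and 395 to 453 CPM in Lhx2 cKO, with 6 called higher and 1 lower. Within that list the 8 endothelial markers summed to 179.8 and 219.9 CPM in control and 270.1 and 316 CPM in Lhx2 cKO, with 6 called higher, while the 4 pericyte markers summed to 142 and 148 CPM in control and 125 and 137 CPM in Lhx2 cKO, with Rgs5 called lower. No marker of either list was at 0 in any library. The part of these cells in the Tgfbr2 value was not tested.

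**Figure D3:**
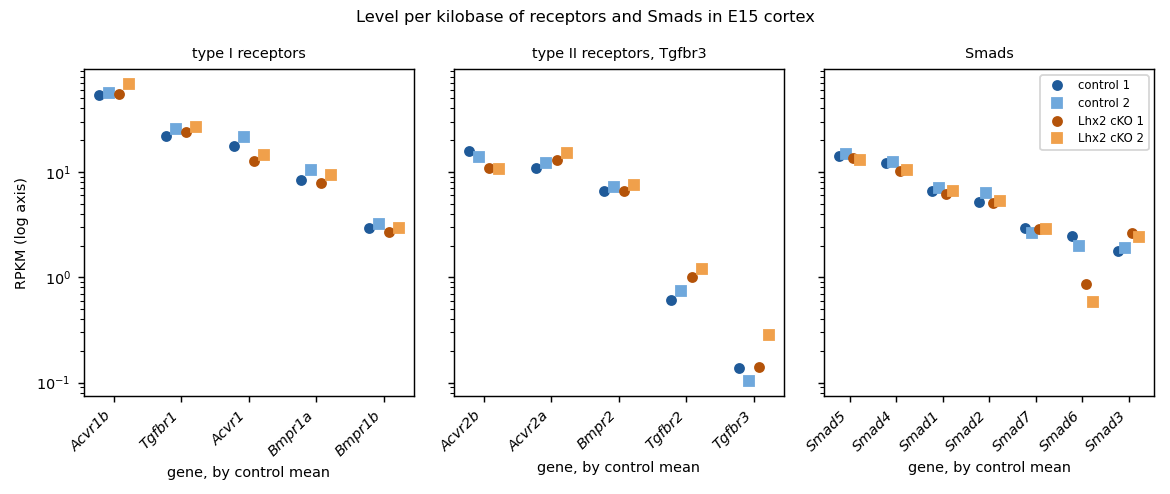
RPKM (y axis, log scale) of type I receptors, type II receptors with Tgfbr3, and Smads in each of the 4 libraries, ordered on the x axis by control mean; circles are replicate 1 and squares replicate 2. Acvr1b is the highest gene in all 4 libraries and Tgfbr3 the lowest, and Smad6 shows the widest gap between control and Lhx2 cKO points.

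Of the 5 analysed Smads that carry the signal, Smad3 was called higher and 4 were not called. Smad3 (ENSMUSG00000032402.13), which acts downstream of activin and TGF-beta, was at 9.77 and 10.6 CPM in control and 14.4 and 13.5 CPM in Lhx2 cKO (log2 fold change 0.46, SE 0.16, edgeR adjusted p 0.037). Its adjusted p rose to 0.0924 in DESeq2 and to between 0.0666 and 0.219 when any 1 of the 4 libraries was left out, with estimates of 0.39 to 0.51. Its partner Smad2 overlapped between groups, at 45.6 and 55.3 CPM in control and 44.7 and 46.4 CPM in Lhx2 cKO (adjusted p 0.356). The BMP Smads Smad1 and Smad5 had log2 fold changes of -0.10 and -0.12 (adjusted p 0.578 and 0.395). Smad4, the partner shared by both branches, was at 45 and 45.9 CPM in control and 37.9 and 38.3 CPM in Lhx2 cKO; the libraries did not overlap, and the adjusted p was 0.0762. Of the summed RPKM of Smad1, Smad2, Smad3 and Smad5, Smad5 made up 47.4% to 50.8% in the 4 libraries. Smad3 made up 6.39% and 6.35% in control, against 9.46% and 8.97% in Lhx2 cKO.

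Of the inhibitory Smads, Smad6 was called lower and Smad7 was not called. Smad6 (ENSMUSG00000036867.8), which mainly restrains BMP signalling and is itself a known BMP target, was at 7.88 and 6.32 CPM in control and 2.77 and 1.87 CPM in Lhx2 cKO. These values rest on 191 and 158 counts against 63 and 43 counts, and 32.7% of the control level was left (log2 fold change -1.61, SE 0.266, edgeR adjusted p 1.12e-05). With all libraries this was the largest estimate of the 42 genes in size, but its SE spans that of Ltbp1 (-1.42). The estimate ranged from -1.92 to -1.36 when 1 library was left out, and without Lhx2 cKO 2 it was behind Ltbp1 (-1.53) and Inhba (-1.5). Smad7, which restrains both branches, had overlapping groups at 13.2 and 12 CPM in control and 12.9 and 13 CPM in Lhx2 cKO (adjusted p 0.894).

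Of the 4 nuclear and cytoplasmic regulators, 1 was called (25%, against 20.8% of all genes). Skil (ENSMUSG00000027660.17), which encodes the corepressor SnoN that binds Smads and is induced by TGF-beta, was at 39.5 and 47.6 CPM in control and 31.2 and 29.7 CPM in Lhx2 cKO (log2 fold change -0.52, SE 0.111, edgeR adjusted p 5.24e-04). Its relative Ski was at 125 CPM in both control libraries and at 132 and 126 CPM in Lhx2 cKO (adjusted p 0.777). Per length Ski was the more abundant, at 22.5 RPKM in control against 4.5 ± 0.588 RPKM for Skil (SD, n = 2). The ubiquitin ligases Smurf1 and Smurf2, which mark receptors and Smads for breakdown, had log2 fold changes of -0.07 and -0.13 (adjusted p 0.659 and 0.378).

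Ratios between related genes within a library do not depend on its scaling. The 9 pairs given here were chosen after the values were seen, so they describe the shift and are not tested; with 2 libraries against 2 an exact two-sided permutation test cannot go below 0.333. Smad6 per Smad7, in RPKM, was 0.842 and 0.743 in control, against 0.302 and 0.204 in Lhx2 cKO. Inhba per Inhbb was 0.21 and 0.183 in control, against 0.102 and 0.0969 in Lhx2 cKO. Both ratios dropped clear of the control libraries. Tgfb2 per Tgfb3 was 0.523 and 0.748 in control, against 0.238 and 0.289 in Lhx2 cKO, and Ltbp1 per Ltbp3 was 0.106 and 0.122 against 0.0528 and 0.0609. Acvr2b exceeded Acvr2a in control, at 1.45 and 1.13, and fell below it in Lhx2 cKO, at 0.834 and 0.695. Acvr1 per Bmpr1a went from 2.11 and 2.07 to 1.62 and 1.53, and Skil per Ski from 0.182 and 0.219 to 0.136 and 0.135. Of the antagonists, Chrd per Nog went from 1.04 and 0.79 to 0.722 and 0.525 and Grem1 per Nog from 0.107 and 0.0549 to 0.188 and 0.147.

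**Figure D4:**
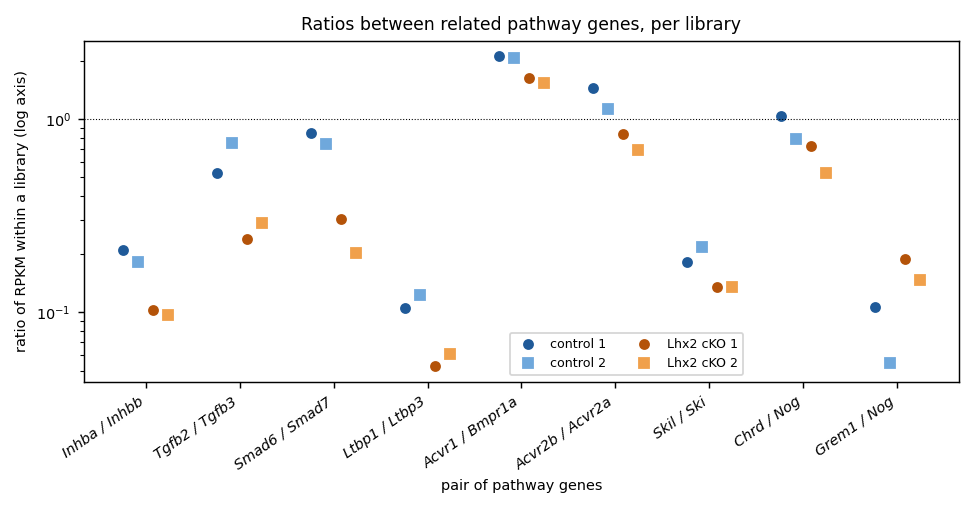
Ratio of RPKM of 2 related pathway genes within a library (y axis, log scale, dotted line at 1) for 9 pairs (x axis); circles are replicate 1 and squares replicate 2. The orange Lhx2 cKO points lie below the blue control points in 8 pairs and above them for Grem1 per Nog, with no overlap in any of the 9.

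Further genes of the pathway were read from 7 lists of 142 genes. Of these, 104 were analysed and 30 called (28.8%, against 20.8% of all genes), 16 higher and 14 lower. The lists were written with earlier results of these data known, so this share is not independent of those results. Of 21 other ligands only Gdf5, Gdf9, Inha and Amh were analysed; edgeR, DESeq2 and limma-voom each gave 0 calls, edgeR gave 0 unadjusted p under 0.05, and without control 2 there was 1 call. Of 12 other antagonists, Crim1, a membrane protein that binds BMPs, was called lower (log2 fold change -0.37, edgeR adjusted p 0.0145), with an adjusted p of 0.0527 in DESeq2, 0.0718 without control 2 and 0.298 without Lhx2 cKO 1. Of 10 other receptors and co-receptors, 3 were called higher. Tmeff2, a transmembrane protein with follistatin-like domains, was at 5.2 and 6.16 CPM in control and 11.4 and 12.2 CPM in Lhx2 cKO (log2 fold change 1.05, adjusted p 3.65e-05). Eng, the endothelial co-receptor endoglin, had 0.42 (adjusted p 0.00707, 0.0821 without control 2 and 0.148 without Lhx2 cKO 2), and the BMP co-receptor Rgma had 0.34 (adjusted p 0.00917, and 0.257 without Lhx2 cKO 2).

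Of 14 other latency and matrix regulators, 5 were called higher and 1 lower (42.9% called, against 20.8% of all genes). Tll2, a metalloprotease related to Bmp1, was at 0.866 and 1.04 CPM in control and 5.1 and 4.48 CPM in Lhx2 cKO, up by 2.32 on the log2 scale (SE 0.344, edgeR adjusted p 1.73e-06) from 21 and 26 counts in control. Itgb5, an integrin subunit that can pair with an alpha chain binding latent TGF-beta, rose from 17.4 and 17.6 to 37.3 and 37 CPM (1.09, adjusted p 2.1e-09). Fbn1, the microfibril protein that anchors latent complexes, rose from 20.7 and 20 to 37 and 39.9 CPM (0.92, adjusted p 5.99e-08). Nrros, which holds latent TGF-beta on microglia, had a log2 fold change of 0.86 (adjusted p 0.00228, and 0.0613 without control 1), beside the microglial markers given above. Mfap2, a microfibril component, was lower (-0.42, adjusted p 0.00137).

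Of 39 other intracellular regulators, 2 were called higher and 7 lower (23.1% called, against 20.8% of all genes), and the count was 3 without control 1, 5 without Lhx2 cKO 2 and 6 without either of the others. Zfp423, a zinc finger partner of the BMP Smads, rose from 24.5 and 23.7 to 38.6 and 37.2 CPM (log2 fold change 0.65, edgeR adjusted p 2.16e-05). The coactivator Ep300 was lower, from 97.3 and 91.1 to 74.1 and 72.4 CPM (-0.36, adjusted p 0.00521). Zfp423 and Ep300 stayed past the threshold in each of the 4 fits that left out a library. The endocytic adaptor Dab2 (1.08), the coactivator Crebbp (-0.33), the kinase Map3k7 (-0.37) and the kinase Hipk2 (-0.63) were also called. Without control 1 the adjusted p was 0.146 for Dab2, 0.222 for Crebbp and 0.142 for Hipk2, which was at -0.28 in that fit and had 0.197 in DESeq2. Without Lhx2 cKO 1 it was 0.133 for Dab2, without control 2 it was 0.141 for Map3k7, and without Lhx2 cKO 2 it was 0.12 for Map3k7 and 0.104 for Crebbp.

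Genes known as targets of the pathway did not move in 1 direction. Among those analysed, 37.5% of the BMP targets and 47.1% of the TGF-beta and activin targets were called, against 20.8% of all genes. Of 8 BMP targets analysed, Id3 was called higher and Id4 and Hey1 lower. Id3, an inhibitor of bHLH factors, rose from 7.01 and 6.6 to 12.2 and 11.8 CPM (log2 fold change 0.82, SE 0.178, edgeR adjusted p 6.71e-04), while its relative Id4 fell from 60.4 and 60.3 to 36.4 and 37.3 CPM (-0.71, SE 0.102, adjusted p 8.39e-07). Id1 (0.36) and Id2 (0.25) were not called, and Hey1 was at -0.62 (adjusted p 0.00873, and 0.0651 without control 2). Of 17 targets of TGF-beta and activin, 5 were called higher and 3 lower; without control 1 or Lhx2 cKO 1 the 8 calls became 5. The cell cycle inhibitor Cdkn1a rose from 4 and 3.28 to 11.1 and 9.84 CPM (1.52, adjusted p 4.26e-07) and the immediate early gene Junb from 31.2 and 24.7 to 47.2 and 53.4 CPM (0.85, adjusted p 2.13e-07). Mmp2 (0.87) and Timp1 (1.5) were also called higher, with adjusted p of 0.063 and 0.114 without control 1, 0.0532 for Mmp2 without Lhx2 cKO 2 and 0.344 for Timp1 without Lhx2 cKO 1 (0.86).

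The 3 targets called lower encode matrix proteins. Col1a1, a fibrillar collagen, fell from 25.7 and 23 CPM to 4.44 and 1.65 CPM (log2 fold change -3.00, SE 0.216, edgeR adjusted p 2.57e-14). Leaving out Lhx2 cKO 1 gave -3.88 and leaving out Lhx2 cKO 2 gave -2.46. The fibrillar collagens Col1a2 (0.25, edgeR adjusted p 0.365) and Col3a1 (0.20, adjusted p 0.392), on the same target list, did not fall and were not called. Fn1, which encodes fibronectin, fell from 156 and 193 to 109 and 118 CPM (-0.62, adjusted p 8.25e-06). Ccn1, a secreted matrix protein, was at -0.35 (adjusted p 0.0183, with 0.0545 in DESeq2, 0.211 without control 2 and 0.152 without Lhx2 cKO 1). Beside these values, the summed level of the 5 analysed markers of meninges and fibroblasts, Col1a1 among them, was 52.3 to 53.5 CPM in control and 34.5 to 35.8 CPM in Lhx2 cKO. Of these 5 markers, Col1a1 was called lower and 4 were not called, and their lowest count in any library was 29. Without Col1a1 the sum was 27.8 and 29.2 CPM in control and 31.3 and 32.9 CPM in Lhx2 cKO, so the lower sum was that of Col1a1. The part of these cells in the values of Col1a1, Fn1 and Ltbp1 was not tested.

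Markers of other cell types also differed. The summed level of 9 markers of intermediate progenitors was 1089 to 1091 CPM in control and 687 to 729 CPM in Lhx2 cKO, with 7 called lower, and that of 12 markers of radial glia was 910 to 947 CPM in control and 815 to 841 CPM in Lhx2 cKO, with 6 called lower and 1 higher. Without Pax6 the radial glia sums were 786 and 813 CPM in control and 784 and 763 CPM in Lhx2 cKO. Of those 11 markers, 5 were still called lower and 1 higher. The 9 markers of glial precursors summed to 163 to 196 CPM in control and 514 to 523 CPM in Lhx2 cKO, with 8 called higher, and without Tnc to 57.7 and 68.3 CPM against 172 and 177 CPM. For 8 markers of interneurons the sum was 223 to 257 CPM in control and 305 to 311 CPM in Lhx2 cKO, with 3 called higher. Without Sst the interneuron sums overlapped, at 214 and 182 CPM in control and 228 and 210.1 CPM in Lhx2 cKO, though Gad2 and Slc32a1 were still called higher. Of 15 markers of the hem and choroid plexus, the dorsal midline source of BMPs, 5 were analysed, with sums of 59.7 to 62.4 CPM in control and 48.2 to 52.2 CPM in Lhx2 cKO. The lower sum was that of Rspo3, which was called lower; without it the other 4 summed to 12.9 and 12.9 CPM in control and 20.6 and 26.8 CPM in Lhx2 cKO, with Rspo2 called higher. These single genes were set apart after their values were seen. The part of these cell types in the values of the pathway genes was not tested.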

How the data were processed

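Polyadenylated RNA of E15 cortex was sequenced in 2 control and 2 Lhx2 cKO libraries, grouped by title. The deposited table gives raw read counts per gene and a gene length. It also carries the authors' log2 fold change, log2 CPM, p-value, adjusted p-value and -log10 of the adjusted p-value, per the file headers, and a column that marks genes up, down or NS. The submitters' processing notes name Trim Galore, Subread, featureCounts, edgeR and mm39. Strand use and the annotation are not given in the sources used here, so reads of overlapping opposite-strand genes cannot be told apart.

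The counts were tested with edgeR 4.0.16 in R 4.3.3 (TMM, filterByExpr with a minimum count of 10, quasi-likelihood, two-sided, 2 residual degrees of freedom), with limma 3.58.1 and DESeq2 1.42.0 as alternatives. The fit code was checked on simulated data. The test drew each gene's spread toward that of all genes, with a median of 38.7 prior against 2 residual degrees of freedom. SE is the absolute log2 fold change over the square root of F. RPKM is TMM-scaled CPM per deposited kilobase. No 2 libraries of a group were alike within counting noise (chi-square over its degrees of freedom, 13.9 and 14.3), so none looked deposited again under another name; this does not show separate animals. Limits of 3 counts cover counting error only.

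The members and lists were chosen with earlier results of these data known. The genes named are Lhx2, every called member, the most abundant uncalled members of each role, and up to 4 called genes per direction of each further list by smallest p; other members are named to complete a role. Promoter windows were matched by symbol and searched for 30 of 42 members. Members on chromosome 18 (Bambi, Smad2, Smad4 and Smad7) were left out of that search, a limit not set on the windows of all genes. Exon overlaps are from GENCODE M21 (GRCm38), to which all 42 matched by identifier.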

Additional observations from a re-analysis of the deposited data

How the results depend on the processing

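Over RLE and upper-quartile factors, library totals, no low-count filter, a minimum mean of 50 counts, the replicate block, DESeq2 and limma-voom, the whole table gave 2170 to 2879 calls, the pathway genes 13 to 16 and the further lists 26 to 30. At an adjusted p under 0.01 there were 1697 calls over all genes, fewer by construction, 11 among the pathway genes and 2 of their rises. With all libraries none of the 42 pathway genes or of the 30 called genes of the further lists changed sign; Pcsk5 (adjusted p 0.0474) lost its call in 5 of these 8 settings. Same-numbered replicates were not shown to be paired: the difference of replicate 1 from 2 had a correlation of 0.001 between the groups across genes. With the replicate block 2874 genes and the same number of pathway genes, 16, were called. Without 1 library the lone sample of its group is assumed to vary like the other group, with 1 residual degree of freedom. These fits gave 1633 to 1790 calls without Lhx2 cKO 2 or control 1 and 2358 to 2396 without the others. They kept the sign of all 16 called pathway genes, as groups that do not overlap must. They turned the sign of 8 uncalled ones, whose estimates ranged from -0.11 to 0.17 for Bmp7, -0.0042 to 0.50 for Nog, -0.42 to 0.061 for Nbl1, -0.23 to 0.16 for Fstl5, -0.27 to 0.055 for Bmpr1a, -0.034 to 0.19 for Tgfbr1, -0.085 to 0.12 for Bmpr2 and -0.028 to 0.097 for Smad7. Depth limits Tgfbr3 most, at 17 to 43 counts.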
